A study of Homo sapiens with 24 samples.

Results

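The list described here holds the RNA windows enriched with SNRNP200 in the cytoplasmic fraction of HEK293 cells, an established human embryonic kidney line, after exposure to 500 µM arsenic. All 6773 windows of the authors' deposited list for this experiment were taken, with no further selection. They are part of 225825 distinct windows in the 6 deposited lists of the study, and they name 2472 of the 9792 genes that appear in at least 1 list (25.2%). The measurement was eCLIP, in which RNA crosslinked to a protein is immunoprecipitated (IP) and its reads are compared with those of an input library. The study covered SNRNP200 from whole cells and from cytoplasm, untreated or under arsenic, and also CAPRIN and G3BP1, whose sample characteristics give no treatment. Of its 24 libraries, 4 belong to this experiment: 2 labelled replicates of input and 2 of IP, all from the cytoplasmic fraction of arsenic-treated cells. No source used here gives how long the treatment lasted. The labels do not say whether replicates were separate cultures, and their protocols name 1 antibody number for all 3 proteins. Those protocols also name arsenic for all samples, so treatment was taken from the sample characteristics instead.

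SNRNP200, also called Brr2, is a helicase of the U5 small nuclear ribonucleoprotein. In the nucleus it unwinds the paired U4 and U6 RNAs and so helps to activate the spliceosome. Arsenic in the form of arsenite is a widely used stressor that leads to phosphorylation of the initiation factor eIF2α, a block of translation initiation and the assembly of stress granules from stalled mRNA and protein. In an mRNA the 5′ untranslated region (5′ UTR) is the stretch that the small ribosomal subunit scans on its way to the start codon, and the 3′ untranslated region (3′ UTR) follows the stop codon.

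The list was made up almost wholly of exons of protein-coding mRNA, and no window in it named a spliceosomal RNA. Protein-coding genes held 98.5% of the windows. Of 58 spliceosomal snRNAs and snRNA pseudogenes that appear in at least 1 of the 6 lists, 0 were listed here. Most of these 58 are pseudogenes, and their only U4 names are RNU4-78P and RNU4ATAC. Their absence therefore does not show whether the main U4, U5 and U6 RNAs were bound. Introns and splice sites held 37 windows, or 0.546% of the list. Of 3 nuclear-retained long noncoding RNAs only TUG1 was present, with 1 window of 10 IP reads and 11 input reads, and MALAT1 was not listed. Nuclear RNA was not absent, however. Small nucleolar and Cajal body RNAs, named for nuclear bodies, were listed for 6 of 35, with 7 windows and 825 IP reads. These windows also name a host gene. Markers of the cytoplasmic fraction at the protein level were not part of these data.

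Each window carries read counts of IP and input, summed by the authors over the replicates, and a deposited log2 enrichment for each of the 2 replicates without its number. The listed windows held 358572 IP reads and 157599 input reads, with a median of 32 IP and 14 input reads per window. Library totals were not used here, so the depth of each library is unknown, and windows of few reads carry a large counting error. The deposited q value of the weaker replicate was under 0.2 for every window and under 0.05 for 1085 windows (16.0%). In 1455 windows (21.5%) the replicates lay more than 2 log2 units apart. Windows were 3 to 100 bases long, with a median of 96.

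A group of 5′ ends is shown first because windows over the very start of ribosomal protein mRNAs were among those with the most IP reads. Such mRNAs are known for a 5′ terminal oligopyrimidine (TOP) start, a C followed by an unbroken run of C and T, through which mTOR signalling and LARP1 control their translation. The lines below give the 30 bases from the RefSeq gene start (GRCh38.p14), 5′ to 3′ and written as DNA. Capitals mark the unbroken run of C and T where the sequence opens with a C followed by at least 4 bases that are each C or T. The last 3 lines are starts without such a run that a window also covered. Not printed are ribosomal protein starts without the run, among them those of RPL4 (366 IP reads) and RPS4X (356).
RPLP1: CCCCTTTCCTCagctgccgccaaggtgctc
RPLP2: CCTTTTCCTCCCTgtcgccaccgaggtcgc
RACK1: CTCTCTTTCactgcaaggcggcggcaggag
RPS19: CCCTTTCCCCTggctggcagcgcggaggcc
RPS12: CTCTTTCCCTgccgccgccgagtcgcgcgg
RPL24: CTTTCTTTTCgccatcttttgtctttccgt
RPS21: CCTTTCTCTCTCgcgcgcggtgtggtggca
NPM1: CTTTCCCTggtgtgattccgtcctgcgcgg
H1-4: cgagtcccggccagtgcctctgcttccggc
TUBA1B: agtgcgttacttacctcgactcttagcttg
PARP1: agcaatctatcagggaacggcggtggccgg

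The RefSeq sequence of RPLP1 lies at chr15:69452818-69452847 on the plus strand (all coordinates are hg38), and the window over it ran from chr15:69452814 to 69452880. RPLP1, a protein of the ribosomal stalk, had 2278 IP and 811 input reads in this window, and its replicates had log2 values of 3.51 and 3.91. RPLP2, its partner in the stalk, had 643 IP and 400 input reads at chr11:809967-810039, with log2 values of 2.28 and 2.94. RACK1, a scaffold protein of the small subunit, stood higher, with 4.17 and 5.79 on 306 IP and 80 input reads. NPM1, the nucleolar protein nucleophosmin, had 229 IP and 59 input reads and log2 values of 2.90 and 5.07. The replicate ranges of RPLP1 and RPLP2 did not overlap, while those of RACK1 and NPM1 overlapped.

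Starts without the run were covered with values in the same range. H1-4, a linker histone, had log2 values of 3.06 and 3.66 on 463 IP and 156 input reads, and TUBA1B, an alpha-tubulin, had 2.93 and 3.54 on 425 and 155. PARP1, the poly(ADP-ribose) polymerase of DNA repair, had 3.34 and 6.34 on 211 IP and 37 input reads.

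Of 1155 windows of the 5′ UTR type that name a single gene, 981 could be matched to a RefSeq gene start. The first base of these windows lay a median of 77 bases from the start (quartiles 0 and 271). Distances were counted on the genome with introns included, so a ROBO1 window lay at 749338 bases. The start itself was covered by 329 of them (33.5%), and 207 began exactly on it. In all, 563 (57.4%) began within 100 bases of it, 92 began more than 1000 bases downstream, and 32 ended before it. Positions within a window were not resolved. Window borders followed tiles of the annotation in many genes: those of ALKBH5 ran from 0 to 82, 83 to 165 and 166 to 248. A window that begins on the start, or a window length beyond it, therefore does not place reads at that base.

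**Figure D1:**
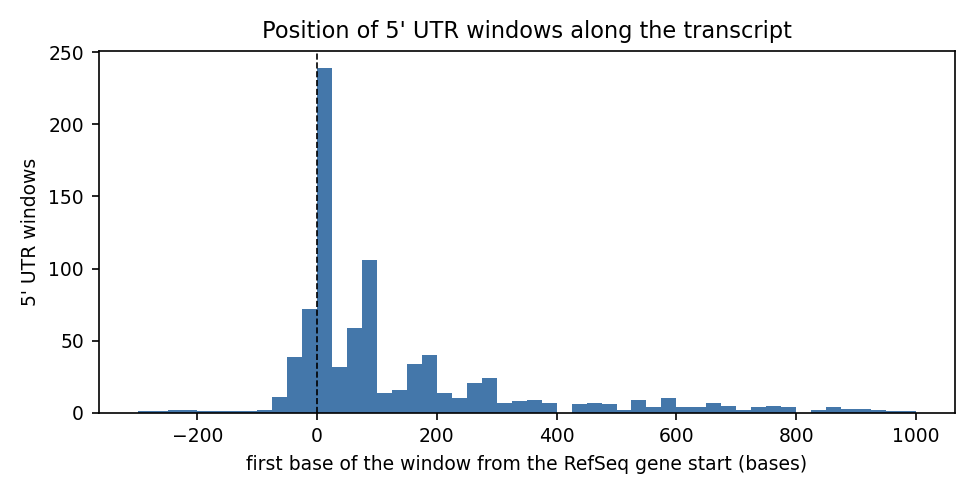
Number of 5′ UTR windows (vertical axis) by the distance in bases of the first base of the window from the RefSeq gene start (horizontal axis). Bins are 25 bases wide, the axis is cut off at 1000, and windows far upstream are left out as well. Distances are on the genome, introns included, and not along the spliced transcript. The tallest bar stands at the start, where 207 windows began exactly on it, and smaller peaks follow downstream. Window borders follow tiles of the annotation, so these peaks do not mark positions of reads.

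The TOP letters were present in 55 of the 329 genes whose start was covered (16.7%). They were present in 4.60% of the 15843 protein-coding RefSeq starts and in 4.04% of all 27305 starts. Among the 2014 listed genes with a RefSeq start, covered or not, the share was 9.14%. Of the ribosomal protein genes covered, 19 of 28 had the run, and of the other genes covered, 36 of 301 (12%). Windows over a TOP start had more reads than those over other starts, with medians of 69 against 41 IP reads and 24 against 11 input reads. Their median log2 enrichment was lower, 3.20 against 3.58, and so was their median of IP reads per input read, 2.60 against 3.46. The presence of these letters is a description of the annotated start and says nothing of what bound there.

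Over the whole list, 3′ UTRs held more windows than any other type and 5′ ends held more than their number of windows would give of the reads. The 3′ UTR type had 3084 windows, 45.5% of the list (95% exact binomial interval 44.3 to 46.7, counting error only). The coding sequence had 1697 (25.1%, 24 to 26.1), the 5′ UTR 1184 (17.5%, 16.6 to 18.4), the start codon 400 (5.91%, 5.36 to 6.49) and the stop codon 265 (3.91%, 3.46 to 4.40). Only 143 windows (2.11%) lay outside these 5 types. Of the IP reads, 5′ UTR windows held 23.0% and start codon windows 7.99%, while 3′ UTR windows held 29.7%. A single window of mitochondrial ribosomal RNA, in MT-RNR2, held 5.68% of the IP reads, and without it the 5′ UTR share was 24.4%.

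**Figure D2:**
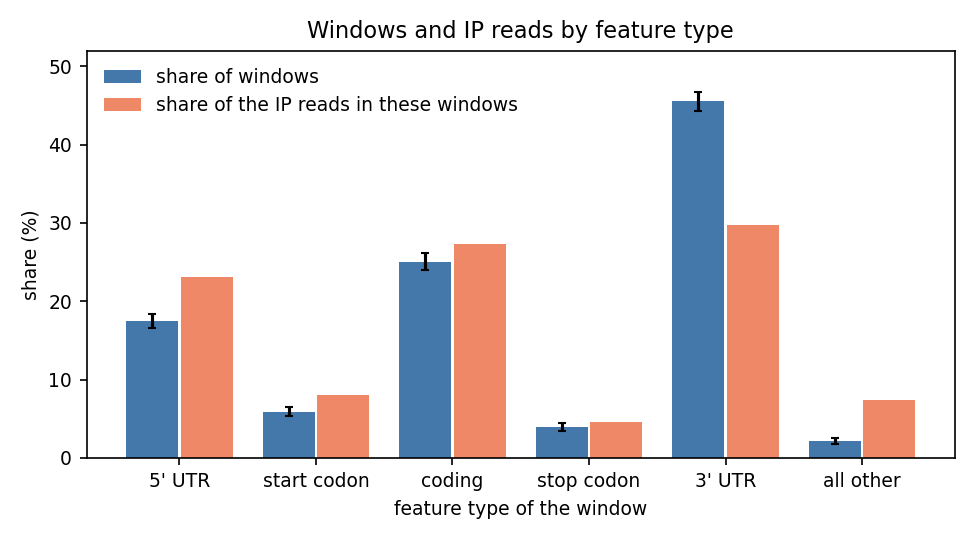
Share in percent (vertical axis) of the 6773 windows (blue, bars with exact 95% binomial intervals) and of the IP reads in them (orange, no interval) for each feature type. The 3′ UTR falls from 45.5% of windows to 29.7% of reads, and the 5′ UTR rises from 17.5% to 23.0%.

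At the level of genes, windows at the 3′ end were the most common and often stood alone. A 3′ end window (stop codon or 3′ UTR) was present in 1750 genes (70.8%), a 5′ end window (5′ UTR or start codon) in 1052 (42.6%) and a coding window in 790 (32.0%). Of the 2472 genes, 997 (40.3%) had windows at the 3′ end only, 331 (13.4%) at the 5′ end only, and 171 (6.92%) in the coding sequence only. All 3 regions were covered in 277 genes (11.2%). With 1 window per gene, the one with most IP reads, the 5′ UTR share was 23.6% and the coding share was 13.1%.

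The order of 5′ and 3′ UTR windows depended on the scale. By reads, 5′ UTR windows stood higher, with a median of 3.85 IP reads per input read against 1.46 in 3′ UTR windows. By the deposited log2 enrichment they stood lower, with medians of 3.66 and 4.25. The values themselves show the deposited log2 to be set against a baseline for each GC class, and the base composition of the types differed: the median GC fraction was 0.706 in 5′ UTR windows, 0.660 at start codons, 0.559 in the coding sequence and 0.398 in 3′ UTRs. The read ratio at which a window had a log2 of 0 moved with GC, from 23.1 input reads per IP read in the class of lowest GC to 2.83 in the class of highest.

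The class of highest GC, above a fraction of 0.58, held 2463 windows (36.4%) and 48.9% of the IP reads. It took in 85.2% of the 5′ UTR windows and 71.0% of the start codon windows, but 38.8% of the coding and 12.1% of the 3′ UTR windows. Inside this class the types lay close together. The median log2 was 3.57 in 5′ UTR, 3.39 in start codon, 3.39 in coding, 3.33 in stop codon and 3.41 in 3′ UTR windows. The medians of IP reads per input read were 4.05, 3.40, 3.89, 3.74 and 3.61 in the same order. The part of GC content in the share of 5′ ends was not tested.

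**Figure D3:**
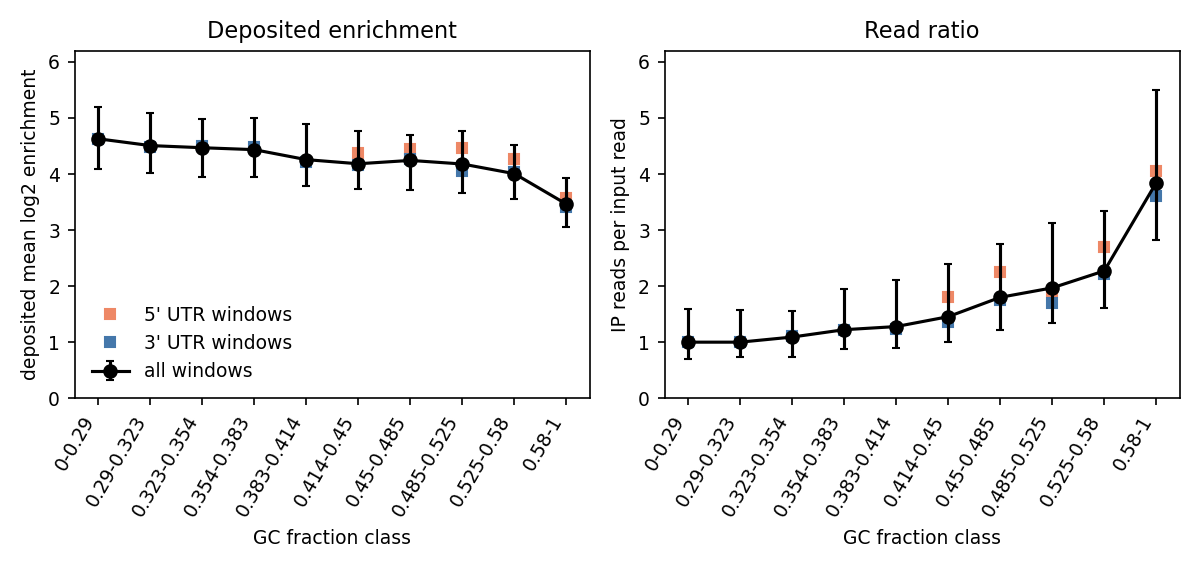
Median deposited log2 enrichment (left) and median IP reads per input read (right) by GC class of the window (horizontal axis, as a fraction), for all windows (black, bars from the lower to the upper quartile) and for 5′ UTR (orange) and 3′ UTR windows (blue) in classes with at least 10 of them. From the lowest to the highest GC class the log2 median fell from 4.63 to 3.46 while the read ratio rose from 1.00 to 3.85, and both UTR types lay within the quartile bars.

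Of the 5′ UTR windows, those of RPLP1 and RPLP2 had the most IP reads. After them came RPS2, a protein of the small ribosomal subunit, with 613 IP and 229 input reads at chr16:1964770-1964841 and log2 values of 4.17 and 5.25. Pseudogenes of RPS2 were also listed, RPS2P5 with 463 IP reads in its main window and RPS2P7 with 229, so reads of these near-identical copies may be split among them. HNRNPAB, an RNA-binding protein, had 475 IP and only 48 input reads, with values of 3.83 and 6.03. TRIM28, the corepressor of zinc finger proteins known as KAP1, had 472 IP and 44 input reads and values of 3.47 and 5.81. GNAS, the stimulatory G protein alpha subunit, had 457 and 53 reads and values of 3.71 and 5.33. HNRNPAB, TRIM28 and GNAS had far fewer input reads than the ribosomal protein windows at a similar number of IP reads.

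By log2 enrichment, the leading 5′ UTR window was in PABPC1, the cytoplasmic poly(A)-binding protein, whose own 5′ UTR is known for an A-rich element that the protein binds. That window had 357 IP and 41 input reads, a GC fraction of 0.298, and replicate values of 4.74 and 9.44. The neighbouring 84-base window of PABPC1 had more IP reads, 453, but 152 input reads and values of 2.26 and 4.04. SLC1A5, the glutamine transporter ASCT2, followed with 4.71 and 8.17 on 123 IP and 12 input reads at chr19:46788055-46788144. SEPHS2, an enzyme of selenocysteine synthesis, had 4.35 and 8.48 on 153 and 19 reads. H2AC20, a replication-dependent histone H2A, had 5.45 and 7.24 on 88 and 16 reads. The replicates of PABPC1, SLC1A5 and SEPHS2 lay more than 3 log2 units apart, so that their order is not set by these data.

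The 5′ UTR windows were spread over 845 genes, of which 231 had at least 2 and 12 at least 5. SLIT2, a secreted ligand of axon guidance, had 15, and ROBO1, which encodes a SLIT receptor, had 7. SLC1A5 also had 7, and PTP4A2, a phosphatase of the PRL family, had 6. The other genes with 5 were AMOT, MIR4442, PPP6R1, TLNRD1, ALKBH5, an RNA demethylase of N6-methyladenosine, ARF6, a small GTPase of membrane traffic, TOP2B, a DNA topoisomerase, and UBE2M, a conjugating enzyme of NEDD8. MIR4442 (587 IP reads in 5 windows) and TOP2B (616 in 7) may be named by the same 5′ UTR windows. A window that names several genes counts for each. SLIT2 had 1 window each at the start codon and in the 3′ UTR besides, ROBO1 had 1 in the 3′ UTR, and neither had one in the coding sequence.

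Start codon windows were spread more evenly, over 393 genes, and 16 of these had more than 1. RPS3A, of the small ribosomal subunit, had 3. The window with the most IP reads was that of RPS2 at chr16:1964526-1964625, with 694 IP and 271 input reads and replicates of 3.08 and 3.32. ACTB, beta-actin, had 681 IP and 335 input reads and values of 2.10 and 2.78. RPL8, of the large subunit, had 647 and 190 reads and values of 2.97 and 4.04. ACTG1, gamma-actin, had 506 and 333 reads and values of 3.17 and 3.61. Histones H3C14 (444 IP, 118 input reads), H1-4 (420 and 298) and H3C2 (417 and 109) were also among the 8 leading windows. Actin and histone genes are close in sequence, so reads may be shared among their copies.

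By enrichment the start codon of TUBB, a beta-tubulin, led with replicates of 5.59 and 6.14 on 181 IP and 30 input reads at chr6:30722968-30723028. HOXB9, a homeobox transcription factor, had 3.37 and 6.80 on 89 and 32 reads. TMED2, a receptor of early secretory traffic, had 4.47 and 5.70 on 42 and 10 reads, and HNRNPL, a splicing regulator, had 4.33 and 5.78 on 63 and 16. The replicates of TUBB lay closest together of these 4. Windows typed as coding sequence lie upstream of it in TUBB, from chr6:30722537 on, so its start codon label does not mark the 5′ end of every annotated TUBB transcript.

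Taking all feature types, the genes with the most windows had several functions, from DNA repair and transcription to transport. The count was 1 window in 1113 genes (45%), and the median was 2. At least 10 windows were listed for 97 genes, which together made up 18.4% of all pairs of a window and a gene. PARP1 led with 27 windows, 19 of them coding, with a median log2 of 4.84. AMOT, a scaffold of Hippo signalling, and IRS4, an insulin receptor substrate, had 23 each. ZNF703, a transcriptional corepressor, had 22 and SLC1A5 had 21.

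FOXC1, a forkhead transcription factor, ZNF503, a zinc finger repressor, POLR2A, the largest subunit of RNA polymerase II, and NORAD, a cytoplasmic long noncoding RNA that binds PUMILIO proteins, had 20 each. GANAB, the catalytic subunit of glucosidase II of the endoplasmic reticulum (ER), had 19. Coding windows prevailed in IRS4 (20 of 23), POLR2A (17 of 20) and GANAB (17 of 19). In AMOT, ZNF703 and SLC1A5 the windows were spread over both UTRs and the coding sequence. Windows in the 5′ UTR, at the start codon, in the coding sequence and in the 3′ UTR were all present in 70 genes, with PARP1, AMOT, ZNF703, SLC1A5, FOXC1 and ZNF503 having the most windows among them.

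By IP reads summed over their windows, mitochondrial ribosomal RNA led, followed by ACTB and FOXC1. MT-RNR2, the 16S ribosomal RNA, had 20362 IP reads and 12522 input reads in its only window, with replicates of 2.06 and 5.86. ACTB followed with 5253 IP and 2699 input reads in 17 windows. FOXC1 had 3514 and 528, RPL8 had 2879 and 890, EEF2, the translocation factor of elongation, had 2833 and 1113, and TRIM28 had 2738 and 472. ZNF503 had 2715 and 455, RPLP1 2572 and 919, TUBB 2524 and 1176, and EIF5A, a factor of elongation and termination, 2360 and 475. Input reads were lowest for ZNF503, TRIM28, EIF5A and FOXC1, at 455 to 528, and highest for MT-RNR2 and ACTB.

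The strongest windows by deposited log2, among those with at least 20 IP and 10 input reads, lay in 3′ UTRs in 9 of the leading 10 genes. CKS2, a regulatory subunit of cyclin-dependent kinases, led at chr9:89316426-89316517 with 156 IP and 28 input reads and replicates of 5.53 and 10.17. ALDH1B1, a mitochondrial aldehyde dehydrogenase, had 5.15 and 9.48 on 50 and 10 reads. RRP1B, a nucleolar protein, had 5.79 and 8.83 on 166 and 10 reads, and HDGF, a growth factor that binds chromatin, had a mean of 7.26 on 105 and 17. PLS3, an actin-bundling protein, had 6.54 and 7.46 on 146 and 13, and BEX3, an adaptor protein, had 6.35 and 7.52 on 176 and 21. The replicates of PLS3 and BEX3 differed by less than 1.2 log2 units, and those of CKS2 and ALDH1B1 by more than 4.

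IARS2, the mitochondrial isoleucyl-tRNA synthetase, with a mean of 7.11, KPNA2, an importin alpha, with 6.90, and PPP1CA, a catalytic subunit of protein phosphatase 1, with 6.86, completed the 10 with PABPC1. The GC fraction of the CKS2, HDGF and IARS2 windows was 0.283, 0.260 and 0.259, in the class where an equal number of IP and input reads already gives a high log2 value.

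**Figure D4:**
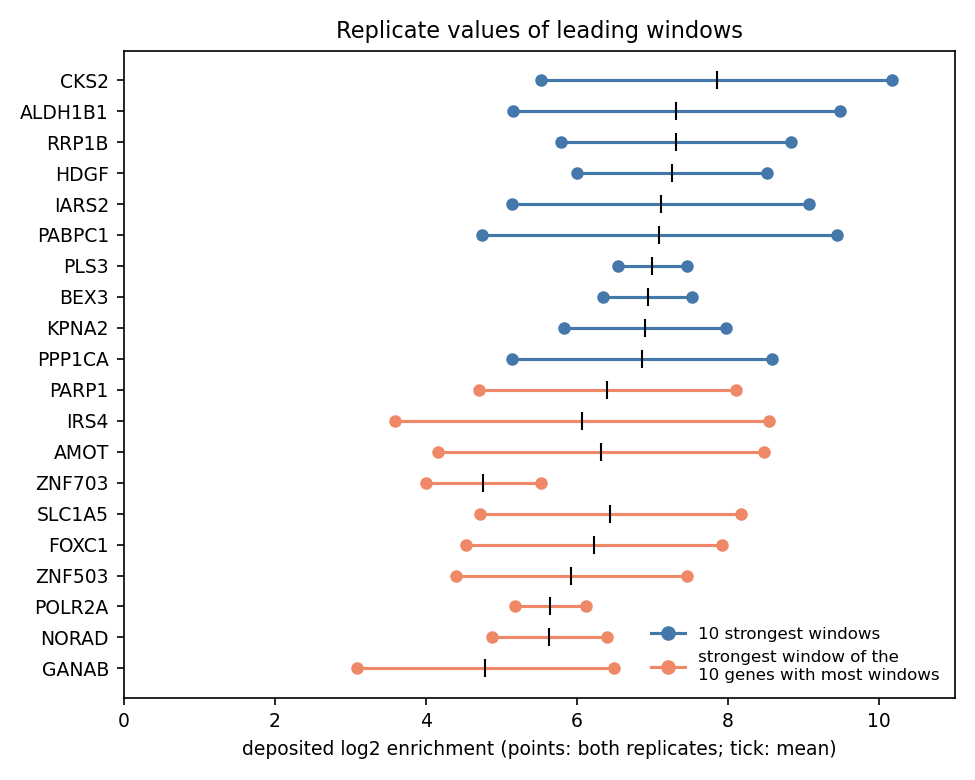
Deposited log2 enrichment (horizontal axis) of both replicates (points joined by a line, with a tick at their mean) for the 10 strongest windows (blue) and for the strongest window of each of the 10 genes with most windows (orange). CKS2 spans 5.53 to 10.17, PLS3 6.54 to 7.46, and the ranges of most genes overlap.

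Many windows lay next to each other. Joining windows of a gene at most 100 bases apart gave 4855 clusters, of which 1161 had at least 2 windows and 76 at least 5. These 1161 held 45.5% of the windows, with a median span of 226 bases. Of them, 481 lay wholly in the 3′ UTR, 174 in the coding sequence and 161 in the 5′ UTR. A 5′ UTR window and a start codon window were joined in 131 clusters, 5′ UTR and coding windows in 65, and coding and 3′ UTR windows in 30.

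The longest cluster had 16 windows over 1916 bases of SLIT2, at chr4:20252000-20253915 on the plus strand, and took in 5′ UTR and start codon. It held 1473 IP and 365 input reads, and the log2 means of its windows ran from 2.83 to 4.74. SLC1A5 had a cluster of 12 windows over 1102 bases from the 5′ UTR through the start codon into the coding sequence (chr19:46787493-46788594, minus strand), with 1124 IP and 165 input reads. IRS4 had 12 windows over 1191 bases of coding sequence, with 1070 and 227 reads, and POLR2A had 12 over 1159 bases of coding sequence and stop codon, with 587 and 127. ALKBH5 had 11 over 1260 bases that included the 5′ UTR, start codon, coding sequence and a 5′ splice site region, with 803 and 101 reads. Neighbouring windows can share a fragment, so windows of a cluster are not independent.

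Genes of 32 functional groups are described next, as the number of members listed here among those that appear in at least 1 of the 6 lists. Over all genes that share was 25.2%. The groups differed in input reads: the median window had 14 input reads over the whole list, 38 in ribosomal protein mRNAs and 64 in those of actin and tubulin. How far RNA abundance sets these shares was not tested.

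Cytosolic ribosomal proteins had the most windows of the 32 groups. Of 83 cytosolic ribosomal protein genes 72 were listed (86.7%), with 270 windows and 8.59% of all IP reads. Their windows lay in the coding sequence (133), the 5′ UTR (63), at the start codon (32) and at the stop codon (29), with only 8 in the 3′ UTR, which is short in these mRNAs. In all, 35.2% were at the 5′ end, against 23.4% over the whole list. The 3′ UTR held 2.96% of the windows in this group and 45.5% in the whole list. The higher 5′ end share therefore does not by itself show a lean to the 5′ end. RPL8 had 13 windows, RPLP0, the stalk base protein, had 12, and RPS2 and RPL15 had 10. The strongest window of RPS19 had close replicates of 5.15 and 5.35 on 137 IP and 26 input reads.

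Of 51 translation factors 29 were listed, with 134 windows, 64 of them coding. EEF2 and EEF1G, both elongation factors, had 9 of 10 and 10 of 12 windows in the coding sequence. EIF4G1, the scaffold of the cap-binding complex, had 9 of 10 there, while its relative EIF4G2 had its strongest window in the 5′ UTR, at 4.89 and 5.99 on 260 IP and 46 input reads. EIF5A had its strongest window in the coding sequence, at 5.25 and 8.01. Poly(A)-binding proteins and the LARP proteins that work with them were listed for 7 of 8, PABPC1 with 13 windows and LARP1 with 9. Aminoacyl-tRNA synthetases, which charge tRNAs, were listed for 10 of 38 (26.3%), close to the share of all genes, and IARS2 and YARS1 had 5 windows each. Mitochondrial ribosomal proteins were listed for 24 of 79 (30.4%), with MRPS16 at 6 windows and MRPL55 at 3, all in its 5′ UTR.

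Both branches of energy metabolism were listed above the share of all genes. Of 82 nuclear genes of oxidative phosphorylation 52 were listed (63.4%), with 101 windows and 41.6% of them at the 5′ end. In this group the 3′ UTR held 20.8% of the windows, against 45.5% over the whole list. The 5′ end share therefore does not by itself show a lean. ATP5MC2, of the ATP synthase ring, and COX4I1, of cytochrome c oxidase, had 5 windows each, and ATP5MC2 had its strongest at the stop codon, at 4.25 and 5.98. Glycolysis was listed for 11 of 17 genes with 66 windows, and 12.1% of these were at the 5′ end. PKM, pyruvate kinase, and GPI, glucose-6-phosphate isomerase, had 11 each, and GAPDH and ALDOA, glyceraldehyde-3-phosphate dehydrogenase and aldolase, had 8 each. GAPDH had 1333 IP reads and a median log2 of 2.89, and PKM had 1136 and 3.31.

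Histone mRNAs had many windows at the start. Replication-dependent histones, whose mRNAs end in a stem-loop in place of a poly(A) tail, were listed for 37 of 49 with 115 windows and 3.79% of the IP reads. Of these windows 29 were in the 5′ UTR, 30 at the start codon, 41 in the coding sequence, 15 at the stop codon and 0 in the 3′ UTR. The 5′ end held 51.3% of them, against 23.4% over the whole list, where the 3′ UTR held 45.5%. Without 3′ UTR windows, this share does not by itself show a lean to the 5′ end. H1-4 and H3C14 had 6 windows each. The highest enrichment was in the 5′ UTR of H3C1, with a mean of 6.65 on 46 IP and 3 input reads, and H2AC20 followed. Replication-independent histones, which have poly(A) tails, were listed for 9 of 10 with 49 windows, 16 of them in the 3′ UTR. H1-10, H3-3A and H3-3B had 8 each.

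Cytoskeletal mRNAs held many reads in few genes. Actin, tubulin and actin-binding genes were listed for 10 of 16, with 83 windows and 4.19% of the IP reads. ACTB and TUBB had 17 windows each, TUBA1B had 12, and ACTG1 and TUBB4B had 9. TUBA1C had the strongest window, at 5.19 and 7.49 on 74 IP and 5 input reads. All 6 genes of 14-3-3 proteins, adaptors of phosphorylated proteins, were listed, with 26 of 46 windows in the 3′ UTR, and YWHAZ had 13 windows with its strongest at 5.95 and 6.54. Small GTPases and their regulators were listed for 24 of 50, with 68 of 111 windows in the 3′ UTR. RHOA had 15, ARF1 had 13, and ARF6 had 7, of which 5 were in the 5′ UTR.

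Chaperones differed in where the windows lay. All 8 genes of the CCT chaperonin, which folds actin and tubulin, were listed, and 25 of their 33 windows were coding. CCT7 had 9 windows and CCT3 had 7, with the strongest of CCT3 at 4.89 and 7.92 on 45 IP and 3 input reads. Cytosolic heat shock chaperones and cochaperones were listed for 14 of 18 with 34 windows, 12 of them in the 5′ UTR. PTGES3 and HSPA4 had 5 each, STIP1 had the highest strongest window of the group, at 4.22 and 7.34, and HSP90AB1 had a single 3′ UTR window of 715 IP and 160 input reads. The stress-inducible HSPA1A, HSPA1B, DNAJB1 and HSPB1 were not listed. Genes of ER folding and the unfolded protein response were listed for 17 of 22 with 79 windows. PRKCSH, the partner of GANAB in glucosidase II, had 15 and CANX, calnexin, had 14, and the stress factors DDIT3 and ATF6 were not listed. Prolyl isomerases were listed for 9 of 18, PPIF with 7 windows and FKBP1A with 6. PPIA, cyclophilin A, had a 3′ UTR window of 345 IP and 30 input reads with replicates of 5.56 and 7.69.

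Other housekeeping groups were listed at intermediate shares. Amino acid transporters were listed for 8 of 11, SLC1A5 with 21 windows and SLC7A5, the light chain of the leucine transporter, with 11, of which 10 were in the 3′ UTR. The proteasome was listed for 24 of 45 with 54 windows, PSME3, an activator subunit, with 8 and PSMD3 and PSMB2 with 6 each. Nuclear pore and transport genes were listed for 23 of 50, and RANBP1, a regulator of the GTPase RAN, had a 3′ UTR window at 5.79 and 9.42 on 77 IP but only 6 input reads. Mitosis and cell cycle genes were listed for 26 of 38, with MCM4, of the replicative helicase, at 9 windows and 1140 IP reads and PCNA, the sliding clamp, at 7. A list of genes often used as references for expression was listed for 16 of 22, from POLR2A with 20 windows to HPRT1 and HSP90AB1 with 1 each.

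RNA-binding proteins and the splicing machinery were present as mRNAs. SR and hnRNP proteins were listed for 28 of 37 with 147 windows, and HNRNPM, PTBP1, HNRNPK and HNRNPF had 11 each. HNRNPM had 10 of its 11 in the coding sequence and PTBP1 had 9 of 11 in the 3′ UTR. Spliceosome proteins were listed for 23 of 51 with 93 windows. PRPF8, the central U5 protein and a partner of SNRNP200, had 17 windows, 15 of them coding, and SNRPB, a core Sm protein, had 11. The mRNAs of the 3 immunoprecipitated proteins were all listed: SNRNP200 had 4 windows with 96 IP and 38 input reads, CAPRIN1 had 3 with 45 and 52, and G3BP1 had 2 with 65 and 48.

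Genes tied to stress were listed in part. Stress granule proteins were listed for 13 of 19 with 66 windows, 32 of them coding and 9.09% at the 5′ end. PABPC1 had 13 windows, EIF4G1 10, and YBX1 and DDX3X, both RNA-binding proteins, 9 each. TIA1, TIAL1, ATXN2, ATXN2L, FXR1 and FXR2 were not listed. The oxidative and metal stress response was listed for 13 of 22 with 39 windows. PRDX6, a peroxiredoxin, had 7, and PRDX2 and TXNRD1, thioredoxin reductase, had 5 each, with PRDX2 at close replicates of 5.23 and 5.37 at its stop codon. FTH1, ferritin heavy chain, had 2 windows in the 5′ UTR, where its iron-responsive element is known to lie, the stronger at 2.98 and 3.53 on 275 IP and 110 input reads. The metallothioneins MT1X and MT2A, heme oxygenase HMOX1 and the regulators NFE2L2 and KEAP1 were not listed.

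**Figure D5:**
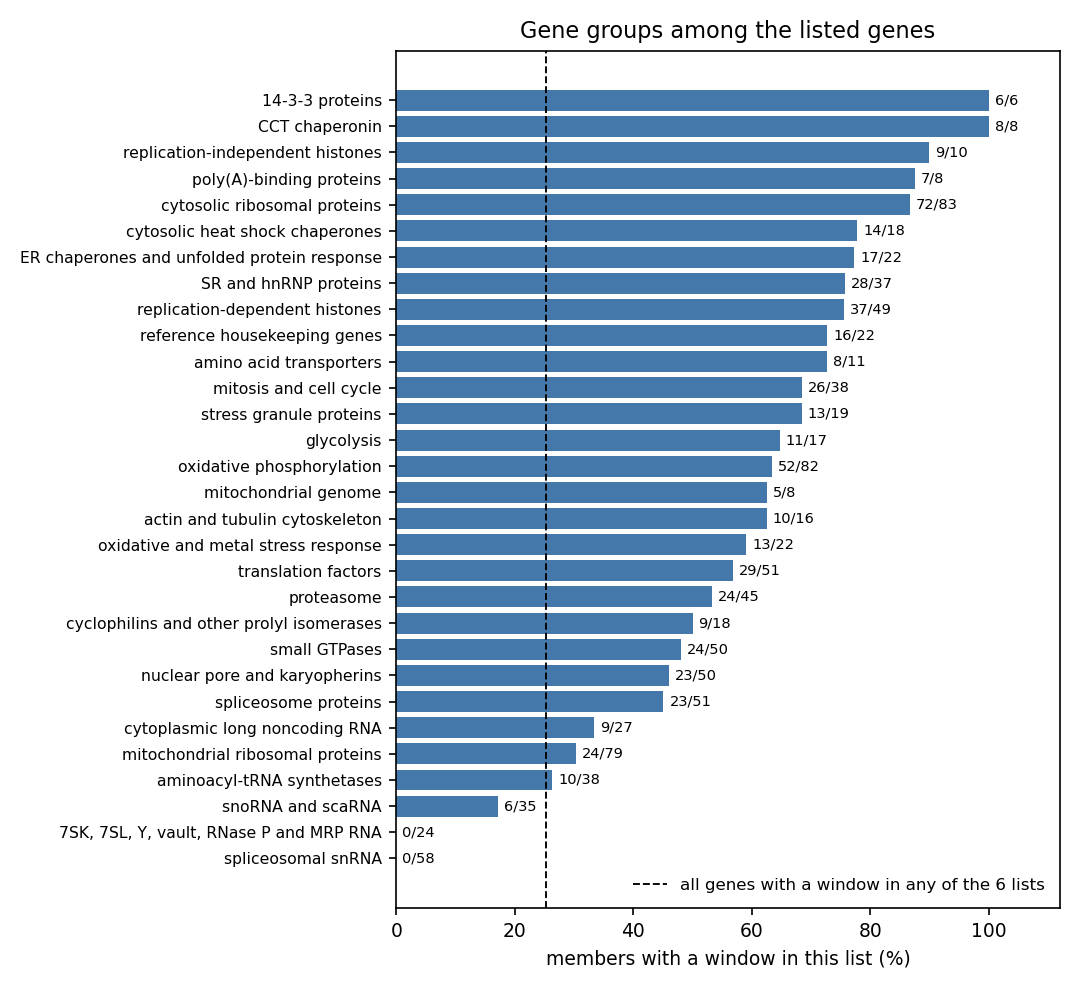
Share in percent (horizontal axis) of the members of each gene group with at least 1 window here, among members that appear in at least 1 of the 6 lists, for groups of 5 or more members. Numbers at the bars give listed and all members, and the dashed line marks 25.2%, the share over all genes. Ribosomal proteins reach 86.7%. Spliceosomal snRNAs and their pseudogenes, which make up most of that group, are at 0 of 58.

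Noncoding RNA was rare. Long noncoding RNAs of the cytoplasm were listed for 9 of 27, NORAD with 20 windows, 945 IP and 558 input reads, and SNHG29 and SNHG16, host genes of small nucleolar RNAs, with 4 windows each. The strongest window of NORAD had replicates of 4.88 and 6.40. Small nucleolar and Cajal body RNAs were listed for 6 of 35, SCARNA6 with 2 windows and SCARNA13, SNORA12, SCARNA12, SCARNA10 and SCARNA14 with 1 each. These windows also name the host gene, and 7 windows held 825 IP reads in all. None of 24 RNAs and pseudogenes of the 7SK, 7SL, Y and vault classes was listed. Those of the 7SK and 7SL classes were all pseudogenes, so their absence says nothing of 7SK and 7SL RNA. The mitochondrial genome was listed for 5 of 8 genes with 6 windows and 6.36% of the IP reads. Besides MT-RNR2 these were MT-ND1 with 2 windows, and MT-CO2, MT-CYB and MT-ATP8 with 1, and 0 of the 6 had a q value under 0.05 in both replicates. Apart from NORAD, the genes with the most windows outside the 5 mRNA types were NR2F2 with 6, FAM189B with 5, and CHCHD3, SNHG16, SNHG29 and ZNF726P1 with 4.

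Nearly all genes recurred in another list, but many windows did not, and of the 5 mRNA types the 5′ UTR had the highest share of windows found in no other list. The list of untreated whole cells alone names 9052 of the 9792 genes that appear in any list. The recurrence of genes therefore says little about this list. Lists were compared by identical windows. This list shared 1065 windows with the list of untreated cytoplasm, which is 15.7% of this list and 25.5% of that one. It shared 2399 with CAPRIN (35.4% and 15.2%), 751 with G3BP1 (11.1% and 24.8%), 882 with whole cells and arsenic (13% and 0.749%) and 1464 with untreated whole cells (21.6% and 0.804%). The lists differ greatly in length, from 3023 to 182066 windows, and each was called separately, so a window missing from a list may have fallen below its threshold.

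In no other list were 2902 windows (42.8%). This held for 752 of the 5′ UTR windows (63.5%) and 1545 of the 3′ UTR windows (50.1%), against 133 start codon windows (33.3%), 66 stop codon windows (24.9%) and 346 coding windows (20.4%). With untreated cytoplasm, 24.9% of the 3′ UTR windows and 5.83% of the 5′ UTR windows were shared. With whole cells and arsenic the order was the other way, at 1.95% and 8.45%. The differences between these shares were not tested.

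Leading genes differed in how often they recurred. SLIT2 had 17 windows here and 17 in untreated cytoplasm, FOXC1 had 20 and 18, IRS4 had 23 and 31, and NORAD had 20 and 28. SLC1A5 had 21 here and 0 in untreated cytoplasm, PTP4A2 had 11 and 0, RPL8 had 13 and 0, EEF2 had 10 and 0, and POLR2A had 20 and 1. In whole cells with arsenic SLC1A5 had 47 windows, EEF2 73 and POLR2A 109, and NORAD had 0. In untreated whole cells the counts were alike, at 41, 80, 121 and 0 in the same order. These genes were chosen as leading ones of this list, and the list of untreated cytoplasm is shorter, at 4182 windows. Counts of listed windows are not levels of binding, and no test of these differences was made.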

How the data were processed

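SNRNP200 eCLIP of arsenic-treated cytoplasm comprised 2 input and 2 IP libraries, grouped by their labels. The submitters' processing notes name STAR 2.7.6, fastp 0.11.5 and the build hg38, with no role or order. No source used here names the window caller. Each experiment has 1 list of reproducible windows, deposited without column names, and the meaning of each column was read from its values. The deposited counts are raw reads of IP and of input, each summed over the replicates. The deposited log2 values are the authors' own enrichments of IP over input, given as lowest, mean and highest replicate, and their mean equals the midpoint in every window. The q-values and p-values were deposited as the weaker and the stronger replicate, and GC was deposited as a fraction.

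Windows were tallied by feature type, gene, cluster (at most 100 bases apart) and shared identity with Python 3.11.15, pandas 2.3.3 and scipy 1.17.1, plotted with matplotlib 3.10.9. The joining of windows into clusters was tested on simulated data, and the search for runs of C and T on made-up sequences. The other tallies were not tested in this way. The read ratio at a log2 of 0 was computed from the mean log2 and the summed counts. Exact binomial intervals (95%) cover counting error only. Windows that name several genes (139) count for each. Symbols are those of the lists. Gene starts came from RefSeq (GRCh38.p14), and no genome sequence was used here. Nothing was tested between groups, as the list holds 1 condition and the replicates carry no number.

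Named are the 10 genes with most windows, most IP reads and strongest windows (at least 20 IP and 10 input reads), the leading 5′ UTR and start codon windows (8 by IP reads, 4 by log2), the 5 longest clusters, and up to 4 members by windows and 2 by strongest window of each of 32 gene lists. Other genes were chosen after their values were seen: those of the printed sequences, members stated as not listed, and CCT3, RPS19, ARF6, HSP90AB1, PPIA, FTH1, MRPL55, H3-3A, H3-3B, SNRPB, HPRT1, SNHG16, RPS3A, the RPS2 pseudogenes, the genes with at least 5 windows in the 5′ UTR and the genes found in no other list, where outside the rule. The members and lists were chosen with earlier results of these data known. Patterns of 4 lists (translation factors, oxidative phosphorylation, proteasome, spliceosome proteins) were narrowed and 1 list was renamed after the files were seen.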

Additional observations from a re-analysis of the deposited data

How the results depend on the processing

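A q-value under 0.05 in both replicates left 1085 windows, 737 genes, 124 clusters of at least 2 windows, 1 of at least 5, and 204 members of the gene lists (521 without it). The shares were then 21.4% in the 5′ UTR, 18.2% in the coding sequence, 4.98% at the stop codon and 46.8% in the 3′ UTR. Of the 1085 windows left, 434 were shared with CAPRIN, 131 with G3BP1 and 217 with untreated cytoplasm. A further comparison gave 115 with whole cells and arsenic and 201 with untreated whole cells. Fewer windows remained, so all these counts are lower than in the full list of 6773. As shares of the windows left, the overlaps with both whole-cell lists fell. Those with CAPRIN, G3BP1 and untreated cytoplasm rose. At least 20 IP and 10 input reads left 3765 windows, 1411 genes, 651 and 47 clusters, and shares of 18.7% (5′ UTR), 6.96% (start codon), 28.7% (coding), 4.62% (stop codon) and 38.8% (3′ UTR). Weighted by IP reads the shares were 23.0%, 7.99%, 27.3%, 4.57% and 29.7% in that order, and 24.4%, 8.47%, 28.9%, 4.84% and 31.5% without MT-RNR2, a setting chosen after seeing the data. With 1 window per gene, 5′ UTR, start codon, coding and 3′ UTR had 23.6%, 7.85%, 13.1% and 48.7%. Counting any annotated type, 5′ UTR, coding and 3′ UTR had 18.9%, 34.9% and 49.6%. Clusters of at least 5 windows numbered 47 at a gap of 0 bases and 174 at 500. Requiring a lowest replicate of at least 1 removed no window. The cause of these shifts was not tested, beyond the smaller number of windows. No paired analysis was possible because the replicate values carry no number and the results come from no test. Leaving out each replicate could not be run, since counts are summed over the replicates. Depth limits windows with few reads, and 1522 windows (22.5%) lay in groups of 10 or more with the same lowest log2 value. At least as many input as IP reads were present in 1109 windows (16.4%). These were not only windows of few reads: that of MT-CYB had 451 input and 367 IP reads.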

Other observations

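Of the 2472 genes, 25 (1.01%) had no window in any of the other lists, of which that of untreated whole cells alone names most genes. Mitochondrial and Cajal body RNAs were among them: MT-ND1 with 2 windows and 1354 IP reads, MT-CYB, MT-ATP8, SCARNA6, SCARNA13, SCARNA12, SCARNA10, SCARNA14 and SNORA12. TIMP1, an inhibitor of matrix metalloproteinases, had a start codon and a stop codon window with 95 IP and 8 input reads, and the stronger had replicates of 4.31 and 5.21. PINK1-AS, an antisense RNA, had 2 windows with 86 IP and 36 input reads, and no source used here says whether counting used strand, so its reads cannot be told apart from those of the overlapping gene. STOM, which encodes stomatin, had 1 window in the 3′ UTR with replicates of 4.22 and 7.56. ORAI1, a calcium channel subunit, DHRS3, a retinal reductase, and TMEM185B each had 1 window in the 5′ UTR, with 25 to 27 IP reads and 5 to 7 input reads. These values are descriptions of low counts, and nothing was tested.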
